A study of Rattus norvegicus with 16 samples.

Results

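The 10 rat genes described here had widely different levels in blood CD8+ cells of 2 inbred strains: Cpne4, Trpv4, Cacnb4, B3galnt1, Adgrg5, Art2b, Adh6a, Slc27a2, Farp1 and Acod1. They were picked because their levels differed widely between the Wistar Kyoto (WKY, labelled Wista Kyoto) and Lewis (LEW) strains, so that difference is given as a description with no test. The set was named as genes nearly on or off by strain, and the data go against that name for Cacnb4, Adgrg5, Art2b, Slc27a2 and Farp1, whose brighter probes were well above background on all 4 blood CD8+ arrays of both strains. The 10 genes have 15 probes, 1 each for 5 genes and 2 each for the other 5, among 30367 gene probes and 15443 named genes on the array. All 15 probes passed the filter on dim probes, as did 20807 gene probes in all.

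The study sorted leukocytes by magnetic beads from rats in which autoimmune glomerulonephritis had been induced with an autoantigen. Every animal was female and 15 weeks old, and the tissues were collected 30 to 35 days later. Total RNA was hybridised to 16 one-colour Agilent arrays, 2 for each of 8 groups. From blood there were CD8+ cells with high surface MHC class II (RT1B+) and CD8+ cells with little of it (RT1Blow), each from WKY and from LEW rats, and pan T cells from WKY rats. Glomeruli of WKY rats gave CD8+ RT1B+ cells, CD8+ RT1Blow cells and a population labelled as macrophages. The array names of the latter carry the tag PANT+, the same as those of the pan T arrays, while their titles and cell descriptions say macrophages, so which cells they hold is not settled by the labels. No LEW glomerular cells, LEW T cells or unimmunised animals are among these groups, so the strains can be compared only in blood CD8+ cells of immunised rats. No label tells whether both arrays of a group stand for separate animals, and each p-value therefore measures only the spread between these arrays, which may be technical.

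RT1B is a class II MHC molecule of the rat, which presents antigen to helper T cells. WKY rats are known to be prone to crescentic glomerulonephritis after immunisation with glomerular basement membrane antigens, whereas LEW rats, which share the class II haplotype, are known to resist it. The 10 genes belong to no single pathway. Copines, the channel Trpv4 and the channel subunit encoded by Cacnb4 are linked by calcium, Slc27a2, Acod1 and Adh6a are enzymes or transporters of metabolism, and B3galnt1, Adgrg5 and Art2b encode a glycolipid enzyme and proteins of the cell surface.

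The level of a probe is the log2 of its background-corrected signal minus the log2 of the 75th percentile of its array, so levels are compared between arrays for 1 probe and never between probes. A probe was well above background on an array when at least 0.5 of its usable spots carried the scanner software's mark for that. Between 57.3% and 68.6% of 58717 gene spots per array carried it, and 0 spots were saturated. The strains lay in different rows of 1 slide, and the RT1B gates in different columns, so strain and row cannot be told apart, nor can gate and column. All glomerular arrays and the pan T arrays lay on another slide than the blood CD8+ arrays. Levels compared between the slides are thus a description only. Natural killer cell markers such as Ncr1 and Klrd1 were bright on all 12 CD8+ arrays, with a list mean of 4.46 to 5.23. On the other arrays that mean was 1.07 to 2.40. Klrk1 of the same list did not follow in LEW. It read 1.38 to 1.67 on the LEW CD8+ arrays and 2.12 to 3.16 on the WKY CD8+ arrays, against 1.69 and 2.19 on the pan T arrays. On both macrophage-labelled arrays 6 of 9 monocyte and macrophage markers were well above background. Cd68, at 4.91 and 3.90, and Cd14, at 4.27 and 3.83, were brighter there than on any other array. Lyz2, at 7.45 and 6.86, overlapped the CD8+ arrays, which reached 7.22. Itgam, at 1.31 and 1.12, lay below every blood CD8+ array. Csf1r, at -0.78 and -0.38, and Adgre1, at -1.96 and -1.70, lay within the range of the CD8+ arrays. Cd163, Mrc1 and Marco were not well above background. The T cell list averaged -0.06 and -0.98 on these arrays, against 3.10 and 2.99 on the pan T arrays, and the glomerular marker list averaged 0.45 and 0.90 against -3.40 or lower elsewhere.

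Promoter sequences of 8 of the 10 genes were found in the RefSeq table of the GRCr8 build, which is the reference strain and neither WKY nor LEW. Adgrg5 and Cacnb4 had no entry. The 250 bases before the start site are shown for the genes with the widest strain difference in each direction, Cpne4 and Trpv4 (higher in LEW) and Slc27a2 (higher in WKY), so that the contrast in their base composition can be seen. Capitals mark the TATA box TATAAA, the CCAAT box CCAAT and the GC box GGGCGG, each searched on both strands, so that TTTATA and ATTGG are the first pair read on the other strand. Cpne4 lies on the plus strand at chr8:114055902-114056151, Trpv4 on the plus strand at chr12:47598938-47599187 and Slc27a2 on the plus strand at chr3:134257851-134258100.
Cpne4: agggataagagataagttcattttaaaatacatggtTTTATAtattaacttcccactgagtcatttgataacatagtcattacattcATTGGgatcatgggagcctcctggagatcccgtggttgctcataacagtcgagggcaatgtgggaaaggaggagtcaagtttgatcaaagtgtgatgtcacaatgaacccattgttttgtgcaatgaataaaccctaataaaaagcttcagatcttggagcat
Trpv4: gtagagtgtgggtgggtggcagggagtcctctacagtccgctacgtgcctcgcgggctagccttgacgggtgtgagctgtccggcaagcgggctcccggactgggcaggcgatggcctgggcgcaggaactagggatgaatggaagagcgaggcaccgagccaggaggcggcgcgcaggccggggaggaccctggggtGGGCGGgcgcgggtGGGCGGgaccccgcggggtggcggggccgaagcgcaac
Slc27a2: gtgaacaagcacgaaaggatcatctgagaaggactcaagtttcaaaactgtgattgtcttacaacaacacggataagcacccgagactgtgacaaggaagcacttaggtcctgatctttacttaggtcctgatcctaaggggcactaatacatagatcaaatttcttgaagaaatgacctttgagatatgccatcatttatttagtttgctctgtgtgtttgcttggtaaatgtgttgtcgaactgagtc
The Cpne4 window had a GC content of 38.4%, with 1 TATA box and 1 CCAAT box. The Trpv4 window had a GC content of 72.8%, 25 CpG dinucleotides and 2 GC boxes, while the Slc27a2 window had a GC content of 40.4% and held none of the 3 motifs. Over the 8 genes GC content ran from 38.4% to 73.6%, beside a median of 51.2% over 33469 promoters of the same length. Each motif was found in 2 of the 8, beside 12.9% of all promoters for the TATA box, 34.0% for the CCAAT box and 30.5% for the GC box. The genes thus had no shared core promoter type among the letters searched. A match is a run of letters, and its use in these cells was not tested.

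In blood CD8+ cells Cpne4 was bright in LEW and not well above background in WKY, and Trpv4, Cacnb4, B3galnt1 and Slc27a2 lay at least 14.1-fold apart by their brighter probes. Of the 15 probes, 11 probes of 7 genes were higher on every LEW array than on any WKY array, 3 probes of 3 genes were higher in WKY, and the second Farp1 probe overlapped. Over all probes, 15.8% had blood CD8+ arrays that did not overlap between strains, but the genes were chosen on this contrast and the share tells nothing further. On 4 probes, of Cpne4, Cacnb4 and B3galnt1, the signal was well above background on all 4 LEW arrays and on none of the 4 WKY arrays, as it was for 2.35% of all probes. Fewer cells carrying a transcript and less of it per cell cannot be told apart in such bulk RNA.

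**Figure D1:**
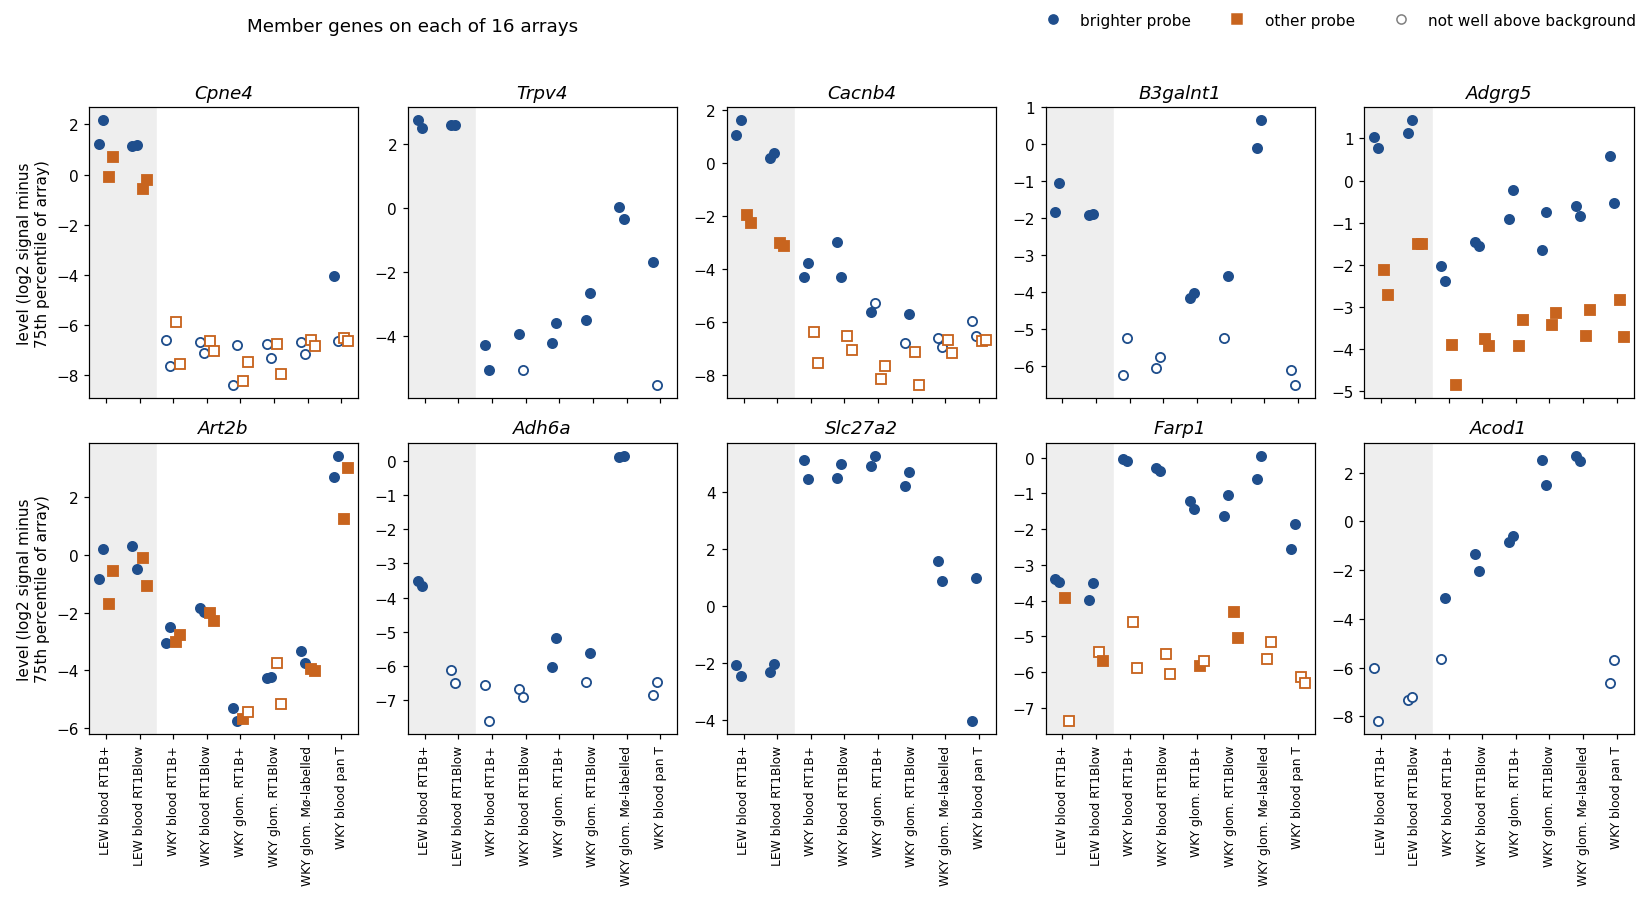
Level of each probe of the 10 genes (log2 signal minus the array's 75th percentile) on the 16 arrays, in 8 groups of 2, with LEW shaded, the gene's brighter probe as circles, its other probe as squares, and open marks where the probe was not well above background. Cpne4 lies between 1.16 and 2.17 on the LEW arrays by its brighter probe, and at -4.03 or lower on all WKY arrays.

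Cpne4 encodes a copine, a protein that binds membrane phospholipid when calcium rises. Its brighter probe read 1.21 and 2.17 on the LEW RT1B+ arrays and 1.16 and 1.17 on the LEW RT1Blow arrays. In WKY blood it read -6.58 and -7.64 in RT1B+ cells and -6.68 and -7.12 in RT1Blow cells, all 4 not well above background. The level was at least 156-fold higher in LEW in the main processing. The bound sets the mean of the bright arrays against a floor on each WKY array. That floor is the higher of the probe's own level and the lowest level of any probe well above background there. It is not a detection limit, as brighter probes could also fail that mark. A second probe of Cpne4 read -0.10, 0.72, -0.56 and -0.23 on the same LEW arrays and was not well above background on any of the 12 WKY arrays, with a bound of at least 56.2-fold. The transcript was therefore read in every LEW array by both probes, and in WKY on a single array by 1 of them, pan T replicate 1 at -4.03. The other pan T array read -6.62, and the glomerular arrays ran from -8.40 to -6.69.

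Trpv4 encodes a calcium-permeable cation channel that opens on cell swelling, warmth and mechanical load. LEW arrays read 2.73 and 2.49 in RT1B+ cells and 2.58 and 2.59 in RT1Blow cells, a spread of 0.10 (SD, n = 4). WKY arrays read -4.28 and -5.06 in RT1B+ cells and -3.93 and -5.06 in RT1Blow cells, the last not well above background. The difference of the means was -7.18 on the log2 scale, a 145-fold lower level in WKY. The WKY cells were dim but mostly measurable. On the macrophage-labelled WKY arrays, which lay on another slide, the same probe read 0.01 and -0.36.

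Cacnb4 encodes a beta subunit that carries voltage-gated calcium channels to the membrane. By its brighter probe LEW arrays read 1.04 and 1.61 in RT1B+ cells and 0.17 and 0.36 in RT1Blow cells, against -4.30, -3.77, -3.01 and -4.31 in WKY, a 24.9-fold difference. A second probe read -1.98, -2.26, -3.03 and -3.13 in LEW and was not well above background on any of the 12 WKY arrays, at least 9.54-fold. Both probes put every LEW array above every WKY array. By the brighter probe WKY glomerular CD8+ arrays read lower still than WKY blood CD8+ arrays, from -6.81 to -5.31. Of these 4 glomerular arrays 2 were well above background. They lay on another slide than the blood CD8+ arrays, so tissue and slide cannot be told apart.

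B3galnt1 encodes globoside synthase, which adds N-acetylgalactosamine to globotriaosylceramide. Its probe is spotted 10 times on each array. LEW arrays read -1.85 and -1.06 in RT1B+ cells and -1.92 and -1.89 in RT1Blow cells, and WKY arrays -6.26, -5.24, -6.06 and -5.78, none of them well above background, which makes LEW at least 14.1-fold higher. The probe was well above background on 3 of 4 WKY glomerular CD8+ arrays, at -4.18, -4.04 and -3.56. It was brightest of all in the macrophage-labelled cells at -0.10 and 0.65. The glomerular and macrophage-labelled arrays lay on another slide than the blood CD8+ arrays.

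Adgrg5, an adhesion G protein-coupled receptor of leukocytes, was lower in WKY without being off. Its brighter probe read 1.03, 0.78, 1.12 and 1.43 in LEW and -2.02, -2.37, -1.45 and -1.55 in WKY, a 7.67-fold difference. The second probe gave 4.46-fold, with LEW arrays from -2.71 to -1.50 and WKY arrays from -4.85 to -3.76. Neither probe had overlapping strains. Every WKY array of other cells, on another slide, also lay below the LEW range, the nearest being pan T replicate 1 at 0.57 by the brighter probe.

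Art2b, which encodes an ADP-ribosyltransferase anchored to the surface of rat T cells and known as RT6, differed least among the genes with clear signal. LEW arrays read -0.83, 0.21, 0.31 and -0.47 by the brighter probe and WKY arrays -3.04, -2.49, -1.82 and -1.98, 4.40-fold apart. The second probe was 3.18-fold apart. In both strains the RT1B+ arrays took in the lowest value. RT6 is known to exist in allelic forms, and Art2b probes may not read them alike: the probe sequences were not used here, and a sequence difference under a probe was not tested.

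Adh6a, an alcohol dehydrogenase gene, differed between strains in 1 gate. LEW RT1B+ arrays read -3.52 and -3.65, whereas LEW RT1Blow arrays, at -6.11 and -6.49, and all 4 WKY arrays, from -7.60 to -6.55, were not well above background. The difference, WKY minus LEW, was -3.49 in RT1B+ cells and -0.47 in RT1Blow cells. The arrays of the strains do not overlap, but the RT1Blow part of that order is among values under background. As a bound over both gates LEW was at least 1.88-fold higher.

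Slc27a2, which encodes a carrier and very long-chain acyl-CoA synthetase of fatty acids, was the widest difference towards WKY. WKY arrays read 5.10 and 4.46 in RT1B+ cells and 4.47 and 4.99 in RT1Blow cells. LEW arrays read -2.06, -2.45, -2.32 and -2.03, all well above background. The level was 125-fold higher in WKY. WKY glomerular CD8+ arrays, on another slide, read 4.91, 5.26, 4.22 and 4.70, near the WKY blood CD8+ values. The probe has 1 spot on each array, so no second spot stands behind these values.

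Farp1 encodes a FERM-domain protein. Its brighter probe, spotted 10 times, read -0.05 and -0.09 in WKY RT1B+ cells and -0.29 and -0.37 in WKY RT1Blow cells. LEW arrays read -3.40, -3.49, -3.98 and -3.50, a 10.5-fold lower level. The second probe did not show it: none of the WKY blood arrays and 2 of the 4 LEW arrays were well above background, and the WKY mean exceeded the LEW mean by 0.09 on the log2 scale. The strain difference of Farp1 therefore rests on 1 of its 2 probes.

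Acod1 encodes the enzyme that makes itaconate from a citrate cycle intermediate in activated macrophages. LEW arrays read -6.03, -8.19, -7.34 and -7.22, none well above background. WKY RT1Blow arrays read -1.33 and -2.03, and WKY RT1B+ arrays -5.65, not well above background, and -3.14. Over both gates WKY was at least 11.9-fold higher. Acod1 was the only 1 of the 15 probes to differ by over 2 on the log2 scale between the WKY RT1B+ arrays. The log2 of the summed signal of the monocyte and macrophage marker list ran from 5.68 to 7.36 in LEW blood CD8+ cells and from 3.10 to 5.88 in WKY. Among the WKY blood CD8+ arrays the one with the lowest Acod1, RT1B+ replicate 1, was also the lowest for that list, at 3.10 against 5.53 to 5.88. Cd14 was not well above background there, while Itgam read 1.72 on both WKY RT1B+ arrays. The WKY pan T arrays, on another slide, had lower Acod1 by value, at -6.64 and -5.70, with 5.22 on both for that list. The part of such cells in the Acod1 values was not tested.

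**Figure D2:**
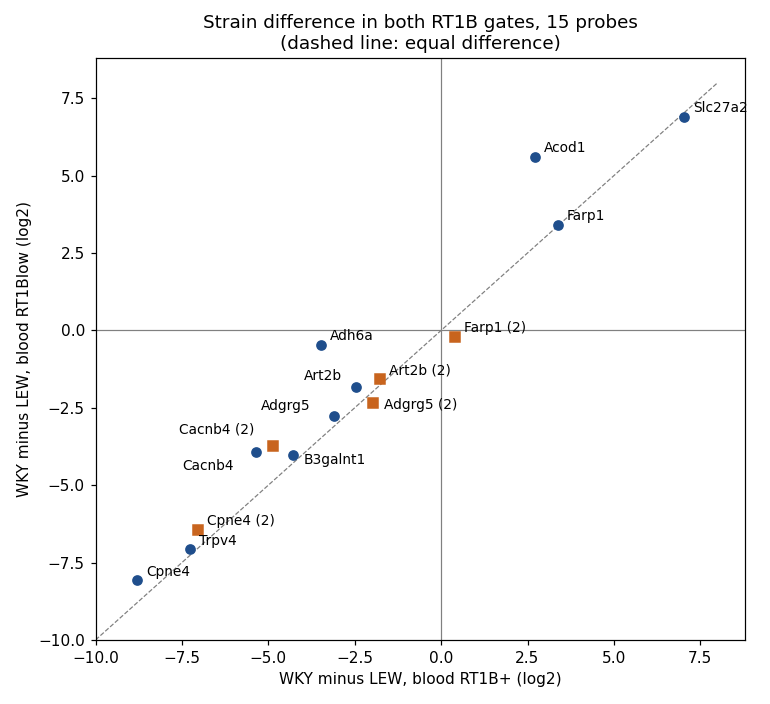
WKY minus LEW in blood RT1B+ cells (x axis) against the same in blood RT1Blow cells (y axis), both as log2 differences of 2-array means, for the 15 probes, with second probes as squares marked (2). Most points lie near the dashed line of equal difference, while Acod1 (2.71 and 5.60) and Adh6a (-3.49 and -0.47) lie away from it.

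The strain difference had the same sign in both gates for 14 of the 15 probes. Cpne4 differed by -8.80 in RT1B+ and -8.07 in RT1Blow cells, Trpv4 by -7.28 and -7.08, and Slc27a2 by 7.03 and 6.91. The second Farp1 probe was the exception, at 0.39 and -0.22. A strain difference in the sequence under a probe was not tested, since probe sequences were not used here. With normexp background correction followed by quantile normalization the strain difference of several dim probes moved by over 1.5 times. It came to -5.45 for Cpne4, -2.03 for B3galnt1, -0.58 for Adh6a, 1.48 for Acod1 and -1.73 for the second Cacnb4 probe, each with the same sign. In size these lie under the folds given above as "at least", which hold for the main processing only.

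The other 8 WKY arrays, which took no part in the choice, were set beside the LEW blood CD8+ range as a description. All 8 lay beyond the LEW range on the WKY side for Cpne4, Cacnb4 and Adgrg5 by both probes, and for Trpv4 and the brighter Farp1 probe. The count was 7 for Slc27a2 and 6 for B3galnt1 and both Art2b probes. For Acod1, which no LEW array showed well above background, 6 of the 8 were well above background. Adh6a is not counted, since its LEW range takes in values under background. By value Cpne4, Cacnb4, Adgrg5, Trpv4 and, by its brighter probe, Farp1 lay outside the LEW range on every WKY array. That does not place each array near the WKY blood CD8+ values. Adgrg5 on pan T replicate 1, at 0.57, lay close under the lowest LEW array, at 0.78. Trpv4 on the macrophage-labelled arrays, at 0.01 and -0.36, lay well above WKY blood CD8+ cells, from -5.06 to -3.93. The other genes, and also Trpv4 and Farp1, were high or low in particular WKY groups. These counts have no LEW counterpart for the same cells, and these 8 arrays lay on another slide than the LEW arrays. Strain, slide and cell type thus cannot be told apart in them. The share of all probes with such counts was not computed, and the LEW values took part in the choice of the genes.

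The next comparisons do not take the strain difference as their measure. The gate comparison in blood does use the same blood CD8+ arrays on which the genes were picked. In blood, averaged over both strains, 0 of the 15 probes differed between the RT1B gates by limma with Benjamini-Hochberg adjustment, a call that asks for an adjusted p under 0.05 and at least a 2-fold change, beside 0.442% of all probes. At an unadjusted p under 0.05 there were 3. The share of all probes at that unadjusted p was not computed, here or for later counts of this kind. The lowest p was that of Adh6a, higher in RT1B+ cells by 1.21 ± 0.28 (SE) with an adjusted p of 0.127 over all probes. Without WKY blood RT1B+ replicate 2 this became 1.48 with an adjusted p of 0.0499, so that array decides the call for Adh6a. Its 2 bright arrays are the LEW RT1B+ ones, while both WKY gates were under background. The same 2 arrays carry the strain difference of Adh6a, so its p between gates is not free of the choice of genes. B cell markers moved with the gate: their list averaged -0.37 and -0.66 in LEW RT1B+ and -3.15 and -2.49 in LEW RT1Blow cells, and -1.72 and -1.22 against -3.11 and -3.22 in WKY. Of these Cr2 was well above background on both LEW RT1B+ arrays, at -3.78 and -3.83, and on neither LEW RT1Blow array. It was also well above background on WKY RT1B+ replicate 2, at -4.53, where Adh6a read -7.60. Pax5 differed little, at -0.78 and -0.63 in LEW RT1B+ and -1.01 and -0.81 in LEW RT1Blow cells. In WKY it read -0.58 and -0.54 against -0.62 and -0.44. The part of B cells in the Adh6a values was not tested. Cpne4 differed by 0.16 between gates, with an interval of 2 SE from -0.90 to 1.22, and Slc27a2 by -0.01, from -1.58 to 1.55, so a rise of 2-fold lies within both intervals.

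In WKY glomeruli 0 of the 15 probes passed between RT1B+ and RT1Blow cells, beside 0.822% of all probes. At an unadjusted p under 0.05 there were 2, with no share of all probes to set beside them. Acod1 read 2.51 and 1.51 in RT1Blow cells and -0.84 and -0.59 in RT1B+ cells. The arrays did not overlap, and the difference of -2.72 ± 0.79 (SE) had an adjusted p of 0.106 by limma. With normexp background correction followed by quantile normalization it was -2.63 with an adjusted p of 0.0085. Myeloid markers moved with it: the log2 of the summed signal was 6.72 and 7.08 in RT1Blow against 5.85 and 6.53 in RT1B+ cells for the monocyte and macrophage list, and 0.54 and 0.30 against -1.87 and -1.39 for the neutrophil list. Cd163, Mrc1 and Marco were not well above background on any of these 4 arrays, and the part of such cells was not tested. Art2b, at -4.27 and -4.23 in RT1Blow and -5.32 and -5.75 in RT1B+ cells, differed by -1.29 ± 0.40 with an adjusted p of 0.119 by limma. The signal of Acod1 was lower in RT1B+ than in RT1Blow cells in blood of WKY too, and the gate difference in glomeruli minus that in blood of both strains was -1.45 ± 0.97, adjusted p of 0.604 by limma. None of the 15 probes passed that test of the gate between tissues, beside 0.211% of all probes. An unadjusted p under 0.05 was found for 1, again with no share of all probes to set beside it.

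Against WKY blood pan T cells, glomerular CD8+ cells of WKY rats had higher Acod1, B3galnt1 and Slc27a2 and lower Art2b. These were 3 probes higher and 2 lower of 15, beside 28% of all probes called, 16% higher and 12.1% lower, so the number called is near the background. These groups lay in different rows of the same slide, so row and cell type cannot be told apart. The median change of the 15 probes was 0.12, beside 0.05 over all probes. Without pan T replicate 2, 9 probes passed, with Trpv4, Cpne4, Adgrg5 and Farp1 added.

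Acod1 was not well above background in pan T cells, at -6.64 and -5.70, and the 4 glomerular CD8+ arrays ran from -0.84 to 2.51. It was at least 83.1-fold higher in glomerular CD8+ cells, with a fitted difference of 6.82 ± 0.69 (SE) and an adjusted p of 2.07e-05 by limma. Slc27a2 read -4.03 and 0.97 in the pan T arrays and 4.22 to 5.26 in the glomerular ones. Its difference was 6.30 ± 0.96, adjusted p 0.000344 by limma. The pan T arrays lay far apart, and the difference was 3.80 without pan T replicate 1 and 8.81 without pan T replicate 2, so its size is set by which of them is used. B3galnt1 was at least 2.79-fold higher, with a fitted difference of 2.08 ± 0.45 and an adjusted p of 0.00309 by limma. It fell under the 2-fold line, at 0.72, with normexp background correction followed by quantile normalization.

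Markers of other cells moved in the same comparison. The glomerular list averaged -4.51 to -3.40 on the glomerular CD8+ arrays and -4.88 and -4.87 on the pan T arrays. Kdr (-0.93 to 2.55) and Podxl (-2.53 to -0.46) were well above background on all 4 glomerular CD8+ arrays and on neither pan T array. Nphs1 was under background on all 6. Pecam1 went the other way, at -2.59 to 0.81 on the glomerular CD8+ arrays and 2.25 and 2.15 on the pan T arrays. By the log2 of summed signal the glomerular list read -0.17 to 2.85 on the former, against 2.27 and 2.17 on the latter. For the monocyte and macrophage list the same measure was 5.85 to 7.08 on the glomerular CD8+ arrays and 5.22 on both pan T arrays. Their part in the B3galnt1, Acod1 and Slc27a2 differences was not tested.

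Art2b was the gene of T cells in this set. By its brighter probe pan T arrays read 2.72 and 3.44, and glomerular CD8+ arrays -4.27, -4.23, -5.32 and -5.75. The groups were far apart and did not overlap. Art2b fell by 7.97 ± 0.34 (SE) on the log2 scale from pan T to glomerular CD8+ cells, adjusted p 8.46e-08 by limma, and by its second probe the level was at least 142-fold lower. T cell markers moved with it: their list averaged 3.10 and 2.99 on the pan T arrays and -0.06 or lower on all the others, with Cd3e among them, and their part in the Art2b difference was not tested. WKY blood CD8+ cells, from -3.04 to -1.82, lay between pan T and glomerular CD8+ cells, a description only, as blood and glomerular CD8+ cells were on different slides.

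Trpv4 gave no stable value against pan T cells. The pan T arrays read -1.69 and -5.53, the second not well above background, and the glomerular CD8+ arrays -4.23, -3.59, -3.51 and -2.65. All 4 lay between the pan T arrays. The difference was 0.12 ± 0.79, adjusted p 0.92 by limma, but -1.80 without pan T replicate 2 and 2.04 without pan T replicate 1, each past the threshold.

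**Figure D3:**
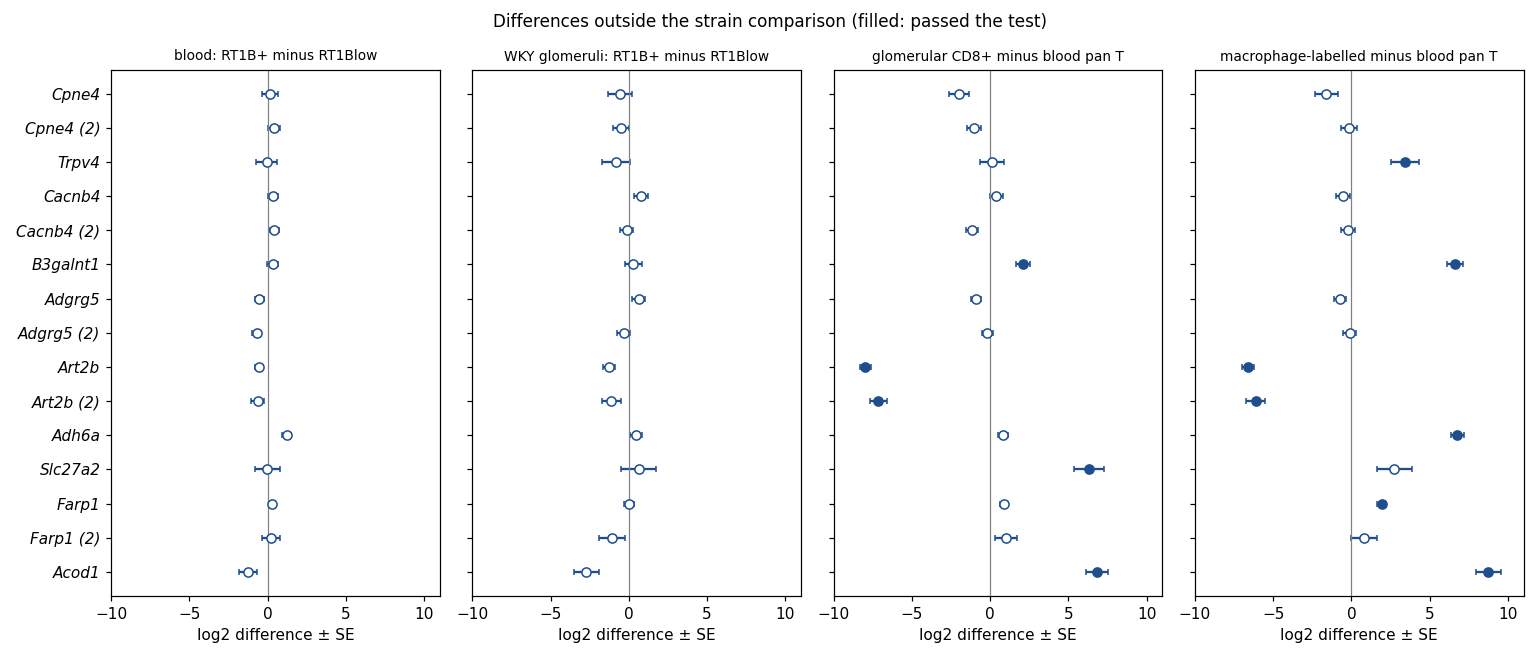
Log2 difference with its SE from limma for the 15 probes (rows, second probes marked (2)) in 4 comparisons other than that of the strains. Marks are filled where the probe passed an adjusted p of 0.05 and 2-fold. No probe is filled in the gate comparisons, and Art2b lies furthest to the left against pan T cells, at -7.97.

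The macrophage-labelled glomerular cells differed from pan T cells on 7 of the 15 probes, 5 higher and 2 lower, beside 37% of all probes, 18.2% higher and 18.8% lower. The higher ones were Acod1, Adh6a, B3galnt1, Trpv4 and the brighter Farp1 probe, and the lower ones were both probes of Art2b. The median over the 15 probes was -0.12, beside -0.19 over all probes.

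Acod1 reached 2.69 and 2.46 in the macrophage-labelled cells, at least 316-fold above pan T cells (8.75 ± 0.79 SE, adjusted p 7.03e-06 by limma). Adh6a, which was not well above background in pan T cells at -6.84 and -6.46, read 0.10 and 0.14, at least 57.8-fold higher with an adjusted p of 4.86e-07 by limma. B3galnt1 was at least 64.4-fold higher, adjusted p 2.38e-06 by limma. Adh6a and B3galnt1 were brighter on both macrophage-labelled arrays than on any other array, while Acod1 overlapped the glomerular RT1Blow arrays, at 2.51 and 1.51.

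Trpv4 was higher than in pan T cells by 3.44 ± 0.91 (SE), adjusted p 0.00879 by limma, and the difference lay between 1.52 and 5.36 when single arrays were left out, with pan T replicates 1 and 2 giving the ends of that range. Farp1 read -0.61 and 0.05 against -2.56 and -1.86, 3.81-fold higher with an adjusted p of 0.000402 by limma. Art2b read -3.31 and -3.75 against 2.72 and 3.44, and fell by 6.61 ± 0.40, adjusted p 5.26e-07 by limma. Slc27a2, at 1.57 and 0.86, overlapped the pan T arrays and did not pass, with an adjusted p of 0.0595 by limma. Without pan T replicate 2 its difference was 5.25 and passed.

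Most kidney cell markers moved with the macrophage-labelled group. The tubule list averaged -0.68 and -1.40 there, against -3.63 or lower on the other arrays. The endothelial receptor Kdr read 6.64 and 6.91 and podocalyxin, Podxl, 5.58 and 5.84. Not all followed: Nphs1 was not well above background, at -6.56 and -5.36. Lrp2, at -2.42 and -3.15, lay between the pan T arrays, at -1.89 and -3.66. Monocyte and macrophage markers averaged -0.48 and -0.75, beside -2.71 and -2.44 in pan T cells. Adh6a, Trpv4 and B3galnt1 are also known from kidney cells, and the part of such cells in these differences was not tested.

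The chromosomal neighbours of the genes mostly did not share the strain difference. For each gene the 3 nearest genes with a tested probe on each side, in the order of the RefSeq GRCr8 table, gave 60 genes. By limma 5 of them differed between WKY and LEW blood CD8+ cells, 2 higher and 3 lower in WKY, which is 8.33%, beside 4.09% of 11227 genes by their brightest probe, 1.21% higher and 2.88% lower. The neighbours ran from -1.41 to 1.46 with a median of 0.03, beside 0.00 over all genes. No neighbour of Cpne4, Trpv4, Cacnb4, Art2b, Adh6a, Farp1 or Acod1 passed, and the genes on both sides of Cpne4, Acp3 and Mrpl3, differed by 0.03 and -0.26.

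Of the 5, 3 lie beside Adgrg5. Ccdc102a read 1.01, 1.28, 0.96 and 1.05 in LEW and -0.20, 0.03, -0.17 and 0.04 in WKY, and was lower in WKY as Adgrg5 was, by a log2 difference of -1.15 ± 0.17 (SE, adjusted p 0.00369 by limma). Adgrg1, another adhesion receptor, went the other way, by 1.21 ± 0.26 with an adjusted p of 0.022 by limma. Its call was lost without any 1 of the 8 arrays compared, with differences from 1.13 to 1.30. Kifc3, a kinesin gene, differed by -1.41 ± 0.37 with an adjusted p of 0.0495 by limma. Its strains overlapped, and it passed in 1 of the 8 fits that left out an array, that without LEW RT1B+ replicate 2, with differences from -1.95 to -0.88.

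Ppm1l, a phosphatase gene next to B3galnt1, was lower in WKY as B3galnt1 was. It read -1.64, -2.02, -1.84 and -1.80 in LEW and -3.01, -2.75, -3.30 and -2.82 in WKY, a difference of -1.15 ± 0.19 (SE, adjusted p 0.00561 by limma). Fam227b, the second gene before Slc27a2, was higher in WKY as Slc27a2 was, by 1.27 ± 0.22 (adjusted p 0.00747 by limma). Both differences are small beside those of the gene they lie next to, 2.22-fold for Ppm1l and 2.41-fold for Fam227b. Both fell under 2-fold with normexp background correction followed by quantile normalization, at -0.77 and 0.54.

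**Figure D4:**
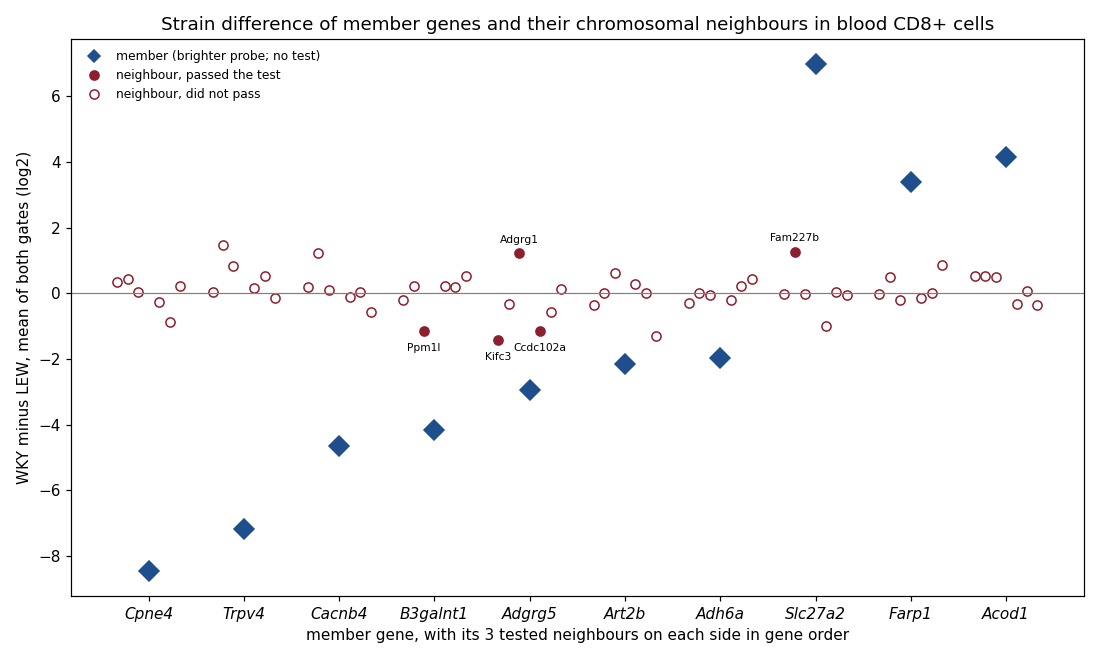
WKY minus LEW in blood CD8+ cells, averaged over the gates (log2, y axis), for each of the 10 genes by its brighter probe (diamonds) and its 3 tested neighbours on each side (circles, filled where they passed the limma test), in gene order along the x axis. The 60 neighbours lie between -1.41 and 1.46, while Cpne4 lies at -8.44 and Slc27a2 at 6.97.

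Relatives of the 10 genes by family or pathway came from 10 lists with 69 genes, of which 62 were on the array and 45 were bright enough to test. Between the strains 2 were higher and 3 lower in WKY, 11.1% of those tested, beside 4.09% of all genes. The medians were -0.04 and 0.00. The count was 3 without LEW RT1B+ replicate 1, LEW RT1Blow replicate 2 or WKY RT1B+ replicate 1. Of the other copines 3 of 8 could be tested, and 0 passed by limma, with 0 at an unadjusted p under 0.05. Cpne2 and Cpne5 were well above background in all blood CD8+ arrays and differed by -0.11 and 0.15. Trpv2, the only other channel of its family bright enough to test, differed by 0.05, and of the other beta subunits Cacnb1 differed by 0.40 and Cacnb3 by -0.48, neither past the test. Wide strain differences in Cpne4, Trpv4 and Cacnb4 thus stood beside small values in their measured relatives.

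The lowest adjusted p among the relatives was that of a fatty acid gene. Acsl1, which activates long-chain fatty acids, read 4.03, 3.83, 3.83 and 4.12 in LEW and 1.04, 0.57, 1.32 and 0.87 in WKY. It was 8.02-fold lower in WKY (log2 difference -3.00 ± 0.21 SE, adjusted p 3.18e-05 by limma), opposite to Slc27a2. The other 7 tested genes of that list did not pass, among them the carriers Slc27a1 at 0.75 and Slc27a4 at -0.48.

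Aldh2, the mitochondrial aldehyde dehydrogenase, was 4.01-fold lower in WKY (adjusted p 0.00226 by limma), as Adh6a was. LEW arrays read 1.13, -0.26, 1.24 and 0.84 and WKY arrays -1.70 to -0.98. The lowest blood CD8+ arrays of the strains were LEW RT1B+ replicate 2 and WKY RT1B+ replicate 1. Each was also the lowest of its strain's blood CD8+ arrays for the summed monocyte and macrophage list. The strain ranges of that list are given with Acod1, and the part of such cells was not tested. Adh5, the neighbour of Adh6a and a member of its family, differed by -0.21 and did not pass. Bst1, an NAD-consuming ectoenzyme listed with Art2b, was lower in WKY by both of its probes, with differences of -2.15 ± 0.34 and -2.29 ± 0.37 (SE; adjusted p 0.00497 and 0.00554 by limma). Cd38, an enzyme of the same kind, differed by 0.53, adjusted p 0.305 by limma. Of the other adhesion receptors 5 of 8 could be tested, and Adgrg1 alone passed, by 1 of its 2 probes. Adgrg6 was not well above background on any WKY blood CD8+ array, at least 1.81-fold lower there than in LEW (adjusted p 0.0975 by limma). Adgre5, a leukocyte receptor gene, differed by -0.09. Farp2, the relative of Farp1, was lower in WKY by value, at -0.93 with an adjusted p of 0.197 by limma, opposite in sign to the brighter Farp1 probe.

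For Acod1 the list held citrate cycle enzymes and genes of macrophage activation, and 0 of its 12 tested genes passed. The share of all genes at an unadjusted p under 0.05 by limma was not computed, and 3 of the 12 were under it. Among these Suclg2, at 0.55 with an adjusted p of 0.0308 by limma, changed less than 2-fold, and Il1b, at -1.95, had an adjusted p of 0.0641. Irf1 differed by 0.03 and Nos2 by -0.17. For B3galnt1 the beta-1,3-galactosyltransferase gene B3galt2 was called higher in WKY, at 1.95 ± 0.41 with an adjusted p of 0.0194 by limma. It was well above background on 2 WKY arrays and no LEW array, which gives at least 2.16-fold. The strains overlapped, and the call was lost without LEW RT1B+ replicate 1 or 2, LEW RT1Blow replicate 2, WKY RT1B+ replicate 1 or WKY RT1Blow replicate 1, with differences from 1.53 to 2.37 over all 8 fits.

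Over the 16 arrays the levels of the genes that were high in LEW rose and fell together only in part. By their brighter probes Cpne4 correlated with Cacnb4 at 0.89, with Trpv4 at 0.87 and with Adgrg5 at 0.85, and with Farp1 at -0.89. B3galnt1 correlated with Adh6a at 0.83, both brightest on the macrophage-labelled arrays, and with Cpne4 at 0.45. These values describe arrays that share slides, strains and groups, and they follow the strain on which the genes were chosen.

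The probes most like each gene's brighter probe across the 16 arrays were found among named genes that passed the filter. For Cpne4 these were Cacnb4 by its second probe (Pearson's r of 0.968), Mreg (0.952) and Spcs2 (0.938). For Trpv4 the values were lower, with Rhox5 and Krt76 at 0.898 and Acsl1 at 0.897. Slc27a2 was most like Lgals1 (0.950), Atp10a (0.947) and Cp (0.929), and Cp, the ceruloplasmin gene, was also second for Farp1 by another of its probes (0.931), after Cryz (0.943). Acod1 was most like Plpp4 (0.944), the interferon-induced Isg15 (0.928) and Mxd1 (0.919), and Art2b like Rnf14 (0.949), Neurl2 (0.947) and Add3 (0.942). Adh6a was most like Tpm2 (0.949) and Esm1 (0.931), and B3galnt1 like Wdr31 (0.932).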

How the data were processed

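The data were 16 one-colour Agilent arrays, 2 for each of 8 groups, with groups taken from the labels. Per the file headers, the authors scanned and extracted the arrays with Feature Extraction 11.0.1.1, and the deposited processed intensity is background-subtracted. The deposited series matrix holds log2 values of the same arrays, whose normalization is not given in the sources used here, and it served as an alternative. The other columns deposited per spot, the scanner's flags, were used for outliers, control spots and background. Here, outlier spots were left out, spots of a probe were averaged on the log2 scale, and the 75th percentile over gene probes was subtracted. A probe was tested where both arrays of any group, at the least, showed it well above background. Gene names came from the array files and RefSeq's table of GRCr8, which was used for names, order and promoters, while the array design names rn4.

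A model with a mean for each of the 8 groups was fitted to all 16 arrays with limma 3.58.1 in R 4.3.3 (lmFit, eBayes, residual df of 8), with Benjamini-Hochberg adjustment over all tested probes. A call asked for an adjusted p under 0.05, a change of 2-fold or more, and a compared group whose arrays all showed the probe well above background. The script was tested on simulated data. Where a group was under background, "at least" folds set the bright mean against a floor. On each array this was the higher of the dim probe's own level and the lowest level well above background. These folds hold for the main processing only. Genes named are the 10 with all their probes, called neighbours and relatives with up to 3 bright others per list, and the 3 most correlated probes per gene. The genes and lists were chosen with earlier results of these data known. The alternatives were quantile normalization, normexp background with an offset of 50 followed by quantile normalization, both filters on dim probes, the series matrix, 1 slide alone, a trended robust variance, no fold minimum and leaving out each array. The number of arrays limits the precision.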

Additional observations from a re-analysis of the deposited data

How the results depend on the processing

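No paired analysis was possible because the labels carry no replicate numbers that link arrays of different groups. The count of probes of the 10 genes that passed was 1 in place of 0 between the gates in glomeruli with normexp background and quantile normalization, 2 in place of 5 for glomerular CD8+ against pan T cells and 3 in place of 7 for macrophage-labelled against pan T cells when only probes well above background on all 16 arrays were tested, a filter that removes the dim probes by construction. With normexp and quantile normalization together 3 neighbours passed in place of 5. Leaving out each array in turn gave 0 to 1 between the gates in blood, 0 to 0 in glomeruli and for the gate between tissues, 6 to 9 for glomerular CD8+ against pan T cells (9 without pan T replicate 2), 7 to 10 for macrophage-labelled against pan T cells (10 without pan T replicate 2), 3 to 5 for neighbours, 3 to 6 for relatives and 14 to 14 for probes whose strains did not overlap. Trpv4 in glomerular CD8+ against pan T cells was 0.12, reversed to -1.80 without pan T replicate 2 and rose to 2.04 without pan T replicate 1. With normexp background and quantile normalization together these strain differences moved by over 1.5 times, all towards 0: Cpne4 from -8.44 to -5.45 and, by its second probe, from -6.74 to -3.87, the second Cacnb4 probe from -4.29 to -1.73, B3galnt1 from -4.16 to -2.03, the second Adgrg5 probe from -2.16 to -1.35, Adh6a from -1.98 to -0.58 and Acod1 from 4.16 to 1.48. In the series matrix, Adh6a was -4.26 and the second Cacnb4 probe -8.95. The second Farp1 probe ran from -0.78 to 0.95 over all alternatives. In the series matrix the median strain difference of all probes was -0.33, beside -0.00 here, and 110 of 1576 strain calls were higher in WKY, beside 245 of 797. Over all probes the gate calls in glomeruli were the least stable: 171, but 7 on 1 slide alone, 19 with no filter and 820 without glomerular RT1Blow replicate 2. The cause of these changes was not tested beyond what is said. Counts of probes of the 10 genes with an array left out are given without the share of all probes. Of 116 counts under an alternative 102 stayed within 1.5 times, and of 310 single calls 257 kept their side and direction. Levels under background have no order.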

Other observations

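The pair of WKY pan T arrays differed on several of the 10 genes. On the log2 scale Cpne4 read 2.59 higher, Trpv4 3.84 higher and Slc27a2, at -4.03 and 0.97, was lower on pan T replicate 1 than on replicate 2, and 2.11% of all probes differed by over 2 between these arrays. Adgrg5 read 0.57 and -0.53 by its brighter probe, and Cacnb4, B3galnt1, Acod1 and Adh6a were under background on both arrays.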
